A study of Saccharomyces cerevisiae with 35 samples.

Results

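Colonies of the *cis3*Δ strains YO2088 and YO2089 were compared with colonies of F45, the parental haploid yeast strain (*Saccharomyces cerevisiae*), by RNA sequencing. The comparison rests on 7 of the 35 libraries in the series. It comprises the 4 columns of the second batch's count table whose headers name YO2088 or YO2089 (2 libraries each) and the 3 columns that name YPG725-F45. All 3 strains were *MAT*a, had *HO* replaced by *hphMX6*, carried the *SPS2:EGFP:natMX4* reporter and had an unmapped serine auxotrophy, and both deletion strains additionally had *CIS3* replaced by *kanMX4*. No agent was added. Colonies were collected on day 4 from rich medium with 2% glucose, and each library was made from 3–5 pooled colonies. F45 forms structured, "fluffy" colonies, whereas *cis3*Δ colonies are smooth. The comparison asks which transcripts accompany the loss of this structure when a single wall protein is missing. The 4 *flo11*Δ libraries of the same batch (YO2085 and YO2086, 2 each), which also come from smooth colonies, were included in the model and serve as a reference. Whether YO2088 and YO2089 arose from separate transformations was not stated, and the libraries are not stated to come from separate cultures, so p-values measure only the spread between these libraries.

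Cis3 is a member of the PIR family (proteins with internal repeats), mannoproteins that are secreted and covalently attached to the glucan of the yeast cell wall. Complex colonies also depend on adhesins, chiefly Flo11, a flocculin on the cell surface, and on incomplete parting of mother and daughter cells. Parting is carried out by enzymes that degrade the septum, many of them made by the daughter cell.

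Total counts per library were 18111329 to 23462118 in F45 and 12136167 to 25104790 in *cis3*Δ, and levels are given below as CPM, read counts scaled to the library total over nuclear ORFs with trimmed-mean normalization. In each *cis3*Δ library, the median ratio to the F45 mean of every chromosome was between 0.946 and 1.01, so no chromosome stood apart. The **a**-specific transcripts *MFA2* and *STE2* averaged 341 and 220 CPM in F45, while the α-factor transcripts *MF(ALPHA)1* and *MF(ALPHA)2* averaged 1.68 and 0.773 CPM. The α-specific *STE3* and *SAG1* were nevertheless detected, at 35 and 70.4 CPM. The deleted *HO* had between 4 and 13 read pairs per library of the batch. F45 library E03 stood apart at the ribosomal DNA. In it *TAR1* had 395 CPM, *YLR154W-A* 131 CPM and *YLR154C-G* 7024 CPM, whereas the other 6 libraries compared had at most 2.28, 0.863 and 621 CPM. None of these 3 ORFs passed the test. Over all nuclear ORFs tested, E03 was also less like the other libraries by Pearson correlation of log2 CPM. It correlated with E01 and E02 at 0.986 and 0.983, while E01 and E02 correlated at 0.992. With the *cis3*Δ libraries E03 correlated at 0.977 to 0.981, and E01 and E02 at 0.985 to 0.994. The reason was not tested.

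*CIS3* (YJL158C, chromosome X, 122265 to 122948, minus strand, R64) was checked first. It had 831, 737 and 738 CPM in F45 libraries E01, E02 and E03. In *cis3*Δ it had 0.173 and 0.328 CPM in YO2088 (libraries D01 and D02) and 0.355 and 0.250 CPM in YO2089 (D03 and D04). These are 2, 5, 7 and 7 read pairs, 21 in all, and correspond to 0.0366% of the F45 mean (exact Poisson 95% interval 0.0227% to 0.056%, counting error only). Every deletion library therefore carried its label, and the log2 fold change of −11.38 (SE 0.148) had an adjusted p of 2.2e-15 (edgeR quasi-likelihood test, Benjamini–Hochberg). An exact two-sided permutation test of the 4 libraries against 3 gave p = 0.0571, the smallest it can give. In *flo11*Δ colonies *CIS3* was at 790 ± 58.5 CPM (SD, n = 4).

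Over both deletion strains no called change was seen in the neighbors of *CIS3* or in the other PIR genes. *HSP150* (PIR2), the nearest PIR gene, which lies downstream of *CIS3* and is transcribed toward it, had 1673, 2027 and 1846 CPM in F45 and 2380, 2196, 1907 and 1628 CPM in *cis3*Δ, so the groups overlapped (log2 fold change 0.13, SE 0.14, edgeR adjusted p = 0.608). *PIR1* was at 347 to 372 CPM in F45 and at 247 to 312 CPM in *cis3*Δ, without overlap, yet it did not pass (log2 fold change −0.35, adjusted p = 0.0478). Tested by strain, it passed in YO2088 (−0.50, adjusted p = 0.00426) and not in YO2089 (−0.21, 0.197), and the strains did not differ past the threshold in the direct test (0.133). *PIR3* overlapped between groups (−0.49, adjusted p = 0.341), and *PIR5* was near 3 CPM everywhere. Per kilobase of ORF, *HSP150* was the most abundant PIR transcript in F45 (1488 CPM per kb), followed by *CIS3* (1124), *PIR3* (754) and *PIR1* (349). Among the nearest ORFs, the log2 fold changes were −0.07 for *FMP33*, 0.09 for *FAR1* and −0.03 for *SSY5*, all with adjusted p above 0.7, and *YJL156W-A* was below the filter on low counts.

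Across the genome few transcripts differed. Of 5942 nuclear ORFs tested, 25 (0.421%) passed an adjusted p of 0.01, of which 11 (0.185%) were higher and 14 (0.236%) lower in *cis3*Δ. Only 5 (0.0841%) exceeded 2-fold: *CSS1* and *HPF1* were higher, and *CIS3*, *NFG1* and *FLO10* were lower. Without regard to the test, the *cis3*Δ libraries lay above all F45 libraries in 525 ORFs (8.84%) and below all of them in 604 (10.2%). The mean absolute log2 fold change was 0.174 and the median −0.01. At an adjusted p under 0.05 there were 235 ORFs, and at an unadjusted p under 0.05 there were 1547. The number depended on the test and the libraries: the likelihood ratio test called 133 and DESeq2 260, and each of these sets held the 25. With only the F45 and *cis3*Δ libraries in the fit 4 ORFs passed, and with a *flo11*Δ library left out of the shared estimate of spread 11 to 17 did. Without F45 library E03 9 ORFs remained, all among the 25, and without E02 there were 157, which included the 25. The count was 10 and 11 without the YO2088 libraries D01 and D02. Leaving out any of the 7 libraries in turn kept 8 ORFs: *CIS3*, *NFG1*, *SVS1*, *THI5*, *DSE1*, *DSE2*, *DSE4* and *SCW11*.

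**Figure D1:**
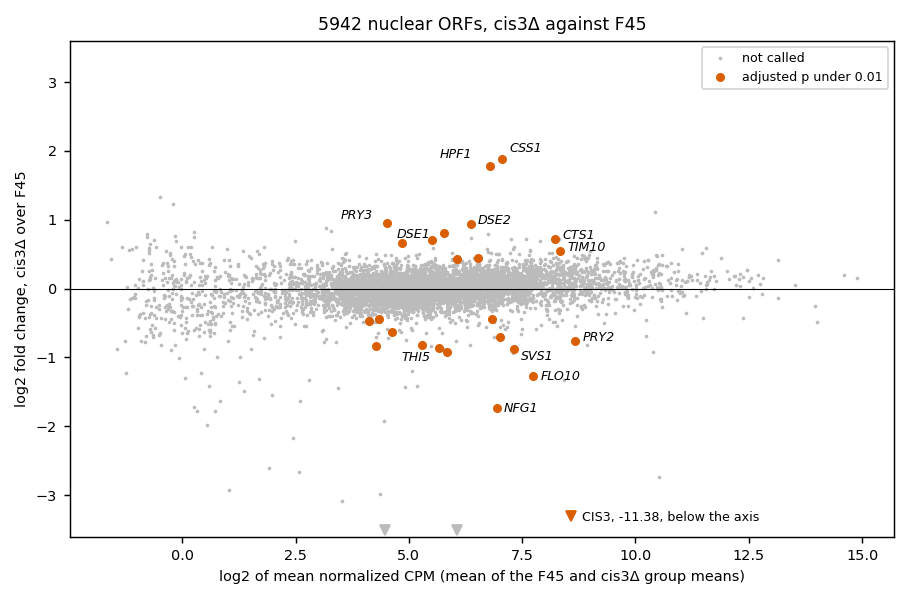
Log2 fold change of *cis3*Δ over F45 (vertical axis) against the log2 of the mean normalized CPM (horizontal axis), with 1 point for each of the 5942 nuclear ORFs tested and the 25 with an adjusted p under 0.01 in orange. *CIS3* (−11.38) is drawn as a triangle at the lower edge, as are in gray *TAR1* (−6.55) and *YLR154W-A* (−6.30), which were high in F45 library E03 only; most other ORFs lie within 1 log2 unit of 0.

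The gene list with the most called increases was daughter cell separation. Of the 12 genes in that list, 6 rose in *cis3*Δ against 0.185% of all ORFs, and none fell. The list, like the others below, was drawn up when earlier results of these data were known, so its count is a description. *DSE1*, a daughter-specific gene, had 35.9, 43.5 and 39.1 CPM in F45 and 71.3, 67.3, 66.0 and 73.0 CPM in *cis3*Δ. *DSE2*, a daughter-specific secreted wall protein, had 53.4, 55.7 and 61.1 CPM in F45 and 121, 115, 98.8 and 99.9 CPM in *cis3*Δ. *SCW11*, a glucanase-like wall protein, had 34.1, 34.6 and 34.4 CPM against 60.1, 57.7, 53.1 and 54.2 CPM. In all 3 genes the lowest *cis3*Δ library was well above the highest F45 library. The increases were 1.75-fold for *DSE1*, 1.91-fold for *DSE2* and 1.64-fold for *SCW11*, each with an edgeR adjusted p of 0.000117.

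*DSE4*, encoding a daughter-specific endoglucanase, had 21.1 to 23.7 CPM in F45 and 30.6 to 38.1 CPM in *cis3*Δ (1.58-fold, adjusted p = 0.00154). *CTS1*, the chitinase that digests the septum between mother and daughter, had 213, 236 and 233 CPM in F45, and 434, 409, 329 and 324 CPM in *cis3*Δ (1.65-fold, adjusted p = 0.0054). *PRY3*, a wall protein of the CAP family, had 14.1 to 16.6 CPM in F45 and 23.5 to 35.5 CPM in *cis3*Δ (1.94-fold, adjusted p = 0.00534). None of the 3 overlapped between groups. The calls of *CTS1* and *PRY3*, unlike those of the other 4, were lost without F45 library E01 or E03 or *cis3*Δ library D01 or D02, with adjusted p between 0.0159 and 0.0262. None of the 6 genes differed between YO2088 and YO2089 by the direct test. The other members were not called: *EGT2* had a log2 fold change of 0.28 (adjusted p = 0.0848) without overlap, *DSE3*, *ASH1* and *ISR1* were between 0.07 and 0.16, and *AMN1*, an inhibitor of mother and daughter separation, was at −0.16. *SUN4*, a glucanase-like protein of the septum, also rose, from 57.2 ± 1.53 CPM (SD, n = 3) to 77.4 ± 3.53 (n = 4; 1.35-fold, adjusted p = 0.00427), a call lost without E01, E03, D01 or D02 (adjusted p 0.0115 to 0.0305).

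The largest increases were in *HPF1* and *CSS1* (YIL169C), which encode related, heavily glycosylated wall mannoproteins. *CSS1* had 69.7, 43.4 and 56.9 CPM in F45, 284 and 272 CPM in YO2088, and 135 and 144 CPM in YO2089. *HPF1* had 55.3, 36.5 and 57.5 CPM in F45, 226 and 227 CPM in YO2088, and 115 and 120 CPM in YO2089. Both genes were higher in every deletion library than in any F45 library, and highest in YO2088. Over both strains *CSS1* was 3.67-fold (log2 fold change 1.88, SE 0.254, adjusted p = 0.00324) and *HPF1* 3.45-fold (1.79, SE 0.244, adjusted p = 0.00328) above F45. The calls were lost without F45 library E03 for *CSS1* (adjusted p = 0.0154), and without E01 (0.0115) or D01 (0.0113) for *HPF1*. The strains did not differ past the threshold in either gene (adjusted p = 0.0159 and 0.0218). The counts of the pair are not fully separate, since 4.73% of the 75-base stretches of *HPF1* also occur in *CSS1* and reads were counted without a filter on mapping quality. The extended reference also held a nonreference gene whose predicted protein the paper describes as strongly similar to Hpf1. Stretches shared with that gene were not measured.

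Among genes of adhesion and filamentation, *NFG1* and *FLO10* fell. *NFG1* (YLR042C), a negative regulator of filamentous growth, had 187, 178 and 204 CPM in F45, 39.6 and 37.8 CPM in YO2088, and 68.8 and 78.6 CPM in YO2089 (3.34-fold lower over both strains, log2 fold change −1.74, SE 0.197, adjusted p = 0.000876). Among the ORFs that passed, this was the largest decrease after *CIS3*, and the strains did not overlap. *FLO10*, encoding a flocculin, had 353, 260 and 300 CPM in F45, 97.3 and 87.2 CPM in YO2088, and 143 and 175 CPM in YO2089 (log2 fold change −1.27, SE 0.189, adjusted p = 0.0054). Its call was lost without F45 library E01 or E03 or *cis3*Δ library D01 or D02 (adjusted p 0.0132 to 0.0234). *FLO11* had 20368, 18286 and 18652 CPM in F45 and 15338, 12746, 14026 and 12769 CPM in *cis3*Δ. The groups did not overlap, and the *cis3*Δ mean was 71.8% of that of F45, but the difference did not pass (log2 fold change −0.48, SE 0.139, adjusted p = 0.0648; exact two-sided permutation p = 0.0571 for 4 against 3 libraries, the smallest possible). From the same libraries the study, which used the likelihood ratio test, reported a significant but weak reduction of *FLO11*. The missing call here is therefore not evidence that *FLO11* was unchanged. *FLO1*, *FLO5* and *FLO9* averaged below 11 CPM in both groups, with log2 fold changes of 0.03, 0.10 and 0.12 and adjusted p above 0.5. In bulk colonies, fewer cells of a type and less RNA per cell cannot be told apart.

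Some regulators of filamentation also fell. Of 21 listed *FLO11* regulators, 2 fell (beside 0.236% of all ORFs) and none rose: *MGA1*, encoding a heat shock factor-like protein that acts in filamentous growth, from 24.9 ± 2.32 to 14.1 ± 2.39 CPM (SD, n = 3 and 4; adjusted p = 0.00655), and *MSS11*, a transcriptional activator of *FLO11*, from 20.3 ± 0.342 to 14.5 ± 0.852 CPM (adjusted p = 0.00671). In 17 of the 21 the estimate was below 0, as it was in 51.9% of all ORFs, with a list median of −0.17. The list, which also holds the noncoding *ICR1* and *PWR1*, was not split into activators and repressors. Its count therefore gives no direction for *FLO11*. *MCM1*, encoding a MADS-box factor, fell from 30.2 ± 0.801 to 19.4 ± 1.14 CPM (adjusted p = 0.00951). The kinase gene *KSS1* and the transcription factor genes *TEC1* and *STE12*, which act together in the filamentation pathway, did not overlap between groups but were not called (log2 fold changes −0.38, −0.37 and −0.34, adjusted p = 0.0395, 0.0534 and 0.0534). The same held for *DIG1*, encoding a repressor of Ste12 (−0.175, 0.109), and *SOK2*, a listed *FLO11* regulator (−0.304, 0.0287). Of 17 filamentation genes tested, 13 estimates were below 0 and 4 above, those of *STE50*, *STE7*, *STE11* and *CDC42* (0.062 to 0.159). In YO2088 alone *TEC1* passed (−0.57, adjusted p = 0.00351), and in YO2089 it did not (−0.20, 0.228). A noncoding transcript, the XUT 2F-170 (chromosome II, 408247 to 408769, plus strand), was the only feature other than an ORF to pass in this comparison. It ends 399 bases before *TEC1* on the same strand and had 37.5, 42.1 and 37.6 CPM in F45, and 15.3, 12.3, 23.4 and 21.4 CPM in *cis3*Δ (log2 fold change −1.10, SE 0.178, adjusted p = 0.00951). The calls of *MGA1*, *MSS11*, *MCM1* and 2F-170 were each lost without F45 library E01 or E03 or *cis3*Δ library D01 or D02 (adjusted p 0.0115 to 0.0493), and *MCM1* and *MSS11* also without others.

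Of the other ORFs that fell, *SVS1*, a wall protein, had 219, 193 and 206 CPM in F45 and 100, 89.8, 124 and 134 CPM in *cis3*Δ (adjusted p = 0.00163), and kept its call with any library left out. *PRY2*, a secreted sterol-binding protein, had 466 to 555 CPM in F45 and 261 to 363 CPM in *cis3*Δ (adjusted p = 0.00487). *OCH1*, the Golgi mannosyltransferase that starts the outer chain of N-linked glycans, fell from 131 ± 6.07 to 96.3 ± 2.77 CPM (adjusted p = 0.00163). *PRM10*, a pheromone-regulated membrane protein, fell from 23.2 ± 1.34 to 17.1 ± 0.987 CPM (adjusted p = 0.00951). These 4 decreases were smaller than 2-fold, between 1.36-fold and 1.84-fold. The calls of *PRY2* and *PRM10* were lost without E01, E03, D01 or D02 (adjusted p 0.0159 to 0.0446), that of *PRM10* also without D03 or D04, and that of *OCH1* without E03 (0.0159).

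*THI5*, an enzyme of thiamine pyrimidine synthesis, had 65.0, 84.6 and 75.6 CPM in F45 and 43.6, 38.7, 42.5 and 33.9 CPM in *cis3*Δ (1.9-fold lower, adjusted p = 0.00103). Its paralog *THI12* also fell (1.76-fold, adjusted p = 0.00986). They share 60.1% of their 75-base stretches, so reads cannot always be assigned to either, and *THI12* lost its call without E03, D01, D02 or D04. *THI13* and *THI4* had log2 fold changes of −0.75 and −0.58 and were not called (adjusted p = 0.0163 and 0.0609). *TYE7*, encoding an activator of glycolytic genes, had 54.8 to 73.3 CPM in F45 and 30.6 to 41.5 CPM in *cis3*Δ (adjusted p = 0.00534), and *ECL1*, a gene that extends chronological life span, had 138 to 172 CPM and 86.7 to 117 CPM (adjusted p = 0.00583). Both lost their calls without E03, D01 or D02 (adjusted p 0.0187 to 0.0268). The other increases were in the mitochondrial genes *TIM10*, a chaperone of the intermembrane space (1.46-fold, adjusted p = 0.00951), and *MRPS5*, a subunit of the small mitochondrial ribosome (1.36-fold, adjusted p = 0.00851). These 2 calls held in only 1 of the 7 fits with a library left out, the fit without E02.

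**Figure D2:**
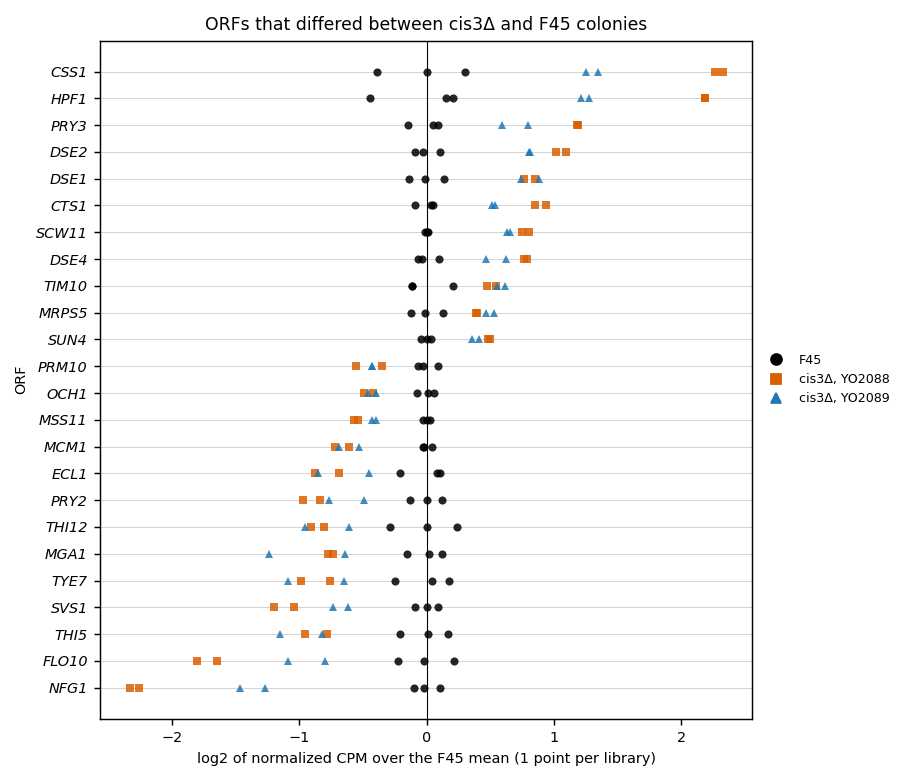
Normalized CPM of each library over the F45 mean, on a log2 scale (horizontal axis), for the 24 ORFs other than *CIS3* with an adjusted p under 0.01; circles are the 3 F45 libraries, squares YO2088 and triangles YO2089. In every ORF shown the *cis3*Δ libraries lie on 1 side of all F45 libraries. For *CSS1*, *HPF1*, *FLO10* and *NFG1*, and for others such as *SVS1*, *CTS1*, *PRY3* and *DSE2*, YO2088 lies farther from F45 than YO2089. For *MRPS5* and *TIM10* the reverse holds.

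Most of the 28 gene lists held no called member. No member of the 20 mating genes passed over both strains, although 13 estimates were below 0 (list median −0.20, beside −0.01 over all ORFs): *AGA1*, an agglutinin subunit, had a log2 fold change of −0.57 (adjusted p = 0.0103), *MFA2*, an **a**-factor gene, −0.49 (0.0217), and *BAR1*, the protease that degrades α-factor, −0.77 (0.0217). In YO2088 alone *BAR1* (−0.97, adjusted p = 0.00589) and *SST2*, a regulator of pheromone signaling (−0.60, 0.0077), passed. Of 25 phosphate genes 23 had estimates below 0 (median −0.24), the smallest adjusted p being 0.0241 for *GIT1*, a glycerophosphoinositol permease. Of 36 respiratory chain and ATP synthase genes tested, 32 had estimates above 0 (beside 48.1% of all ORFs; median 0.22), and the smallest adjusted p were those of *COX12* (0.45, adjusted p = 0.0392) and *ATP20* (0.55, 0.041). None of these lists can be said to have changed by the test used. In the sulfur and methionine list 25 of 34 estimates were below 0 (median −0.17), including *MET3*, the ATP sulfurylase gene (−0.45, adjusted p = 0.0217, and past the threshold in YO2088 alone at −0.59, 0.00421), and *MET10*, a sulfite reductase subunit (−0.55, 0.0259). The wall integrity list, largely genes of the Pkc1 pathway, had a median of −0.10 and 0 of 19 called, with 17 estimates below 0 (beside 51.9% of all ORFs). The DAN/TIR mannoproteins had a median of 0.30, with 0 of 9 called, and the stress and heat shock list −0.10, with 0 of 40 called.

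**Figure D3:**
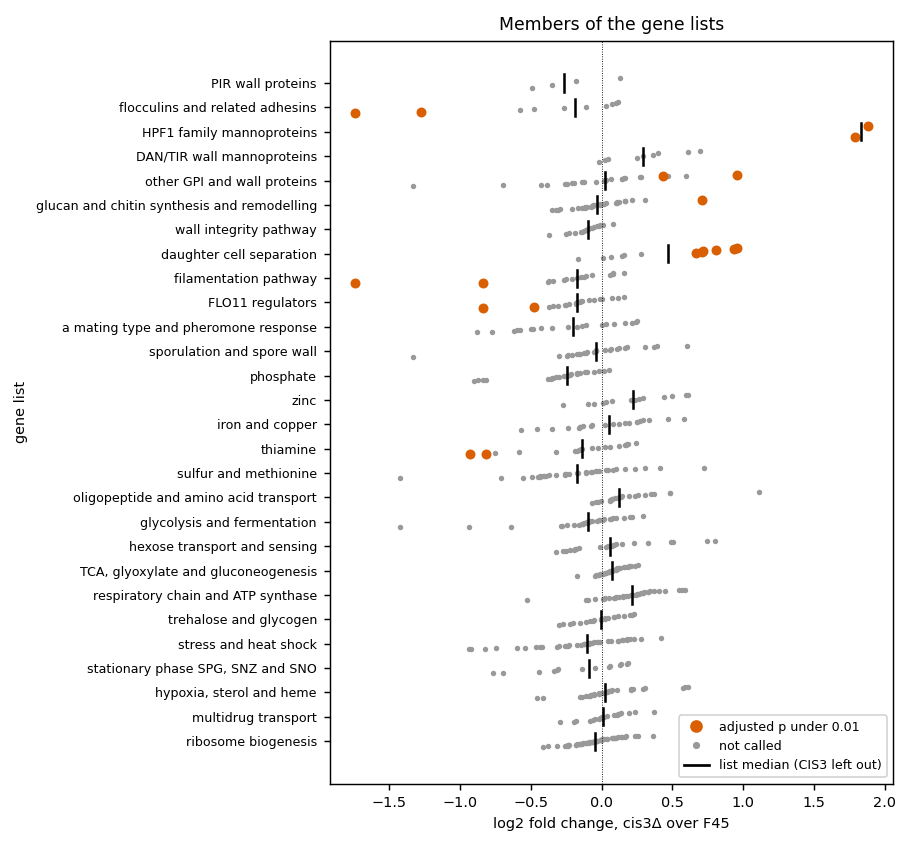
Log2 fold change of *cis3*Δ over F45 (horizontal axis) for each member of the 28 gene lists (rows), with called members in orange, other members in gray and the list median as a black bar; *CIS3* is left out. The daughter cell separation list has 6 of 12 members called and the *HPF1* family both of its members, while most lists center near 0 and have none.

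Further genes were taken from the study's own lists for the *cis3* deletion, which were drawn from these same libraries, so the choice is not independent of the values. *OPT2*, encoding an oligopeptide transporter, had 946, 849 and 838 CPM in F45, 2514 and 2279 CPM in YO2088, and 1337 and 1460 CPM in YO2089 (log2 fold change 1.11, SE 0.191, adjusted p = 0.0131). *PDC6*, a minor pyruvate decarboxylase, had 27.3, 47.7 and 57.0 CPM in F45 and 9.24 to 22.9 CPM in *cis3*Δ (−1.42, SE 0.26, adjusted p = 0.018), and *YMR244W* had 3.95, 10.2 and 13.1 CPM and at most 3.6 CPM (−1.63, SE 0.304, adjusted p = 0.0187). None of the 3 overlapped between groups, and none passed the quasi-likelihood test used here. The study had called the genes of its list by the likelihood ratio test, at an adjusted p under 0.01 and over 2-fold. *SPS100*, a spore wall protein gene, had 275, 520 and 679 CPM in F45 and 180, 246, 284 and 73.7 CPM in *cis3*Δ, and *YDL218W* had 10.9, 40.5 and 51.9 CPM and 8.02, 13.1, 13.6 and 2.18 CPM. Here F45 library E01 fell within the *cis3*Δ range, and the adjusted p were 0.059 and 0.0557.

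The 2 deletion strains were then compared directly, in a fit with 1 coefficient per strain. They differed in 24 ORFs (0.404% of those tested), 23 of them higher in YO2088 (0.387%) and 1, *NFG1*, lower (0.0168%). Of these, 2 exceeded 2-fold (0.0337%), *MUP3* and *YOR343C*. Many encode permeases. *MUP3*, a low-affinity methionine permease, had 123, 108 and 113 CPM in F45, 257 and 261 CPM in YO2088, but 118 and 125 CPM in YO2089. *MEP2*, a high-affinity ammonium permease, had 1348, 1243 and 1265 CPM in F45, 2484 and 2233 CPM in YO2088, and 1248 and 1227 CPM in YO2089. In both genes YO2089 lay at the level of F45. The differences between the strains were 2.14-fold for *MUP3* (adjusted p = 0.000947) and 1.91-fold for *MEP2* (adjusted p = 0.00193). The ammonium permease *MEP3*, the GABA permease *UGA4*, the transporter-like *SEO1* and *AGP2*, the sulfite pump *SSU1* and *OPT2* were likewise higher in YO2088, with *UGA4* at 85.3 and 85.6 CPM against 51.1 and 46.2 CPM. In the list of oligopeptide and amino acid transport 5 of 23 tested members differed between the strains, all higher in YO2088.

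Among the other differences between the strains, *CHO2* and *OPI3*, the methyltransferases that convert phosphatidylethanolamine to phosphatidylcholine, were both higher in YO2088. *CHO2* had 253, 211 and 257 CPM in F45, 529 and 493 CPM in YO2088, and 265 and 291 CPM in YO2089, and *OPI3* had 1116, 1210 and 1150, then 1988 and 2064, then 1278 and 1169 CPM. *GDH3*, a glutamate dehydrogenase of the stationary phase, had 2052 and 2130 CPM in YO2088 and 1275 and 1133 CPM in YO2089, where F45 had 1165 to 1431 CPM. *SPI1*, a GPI-anchored wall protein, had 6605 and 6550 CPM against 4163 and 3659 CPM. In each the libraries of YO2088 were above all those of YO2089 and F45. Of the 24 ORFs, 19 also differed between YO2088 and F45, and 1, *NFG1*, between YO2089 and F45, comparisons that share the F45 libraries.

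**Figure D4:**
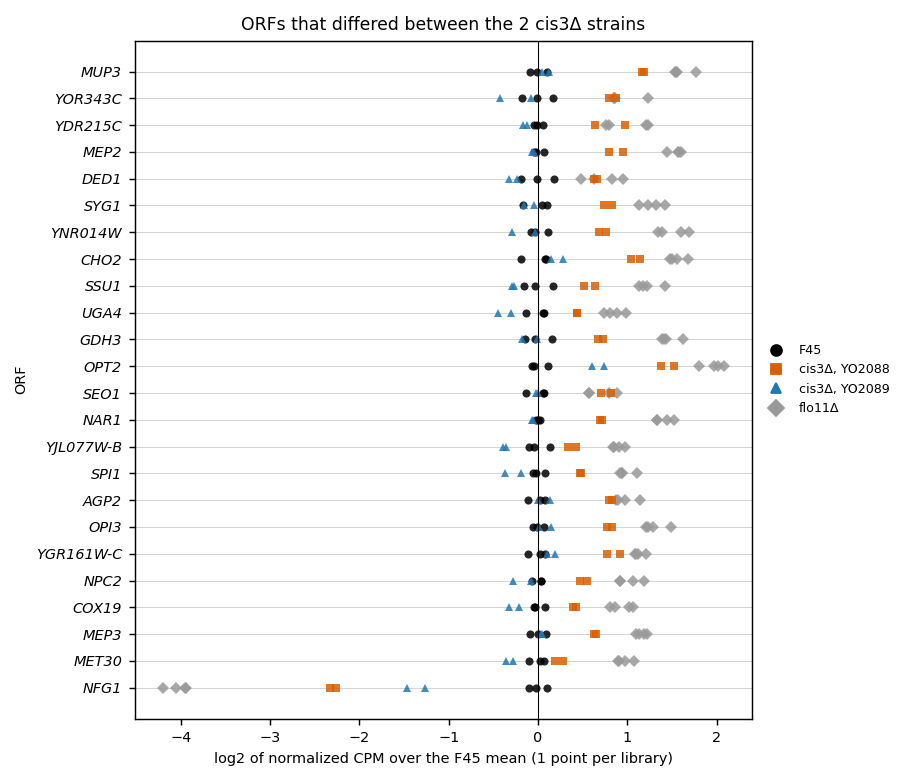
Normalized CPM of each library over the F45 mean, on a log2 scale (horizontal axis), for the 24 ORFs that differed between YO2088 and YO2089; circles are F45, squares YO2088, triangles YO2089 and diamonds *flo11*Δ. For all but *NFG1* the YO2088 squares lie to the right of the YO2089 triangles. Both triangles lie to the left of all F45 circles in *UGA4*, *YJL077W-B*, *MET30*, *SSU1*, *SPI1*, *COX19*, *DED1*, *NPC2*, *NAR1*, *YDR215C* and *NFG1*. Of these ORFs only *NFG1* passed between YO2089 and F45.

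The comparison between the strains rests on 2 libraries each. No ORF passed without D01 or without D02, 5 passed without D03 and 1 without D04, although all 24 kept their direction. With only the groups compared in the fit, 0 ORFs passed in edgeR, against 730 at an unadjusted p under 0.05 in the full fit and 117 by DESeq2. The spread was estimated over all 11 libraries, and leaving out a *flo11*Δ library gave 7 to 14. Against F45, YO2088 differed in 93 ORFs (1.57%; 60 or 1.01% higher, 33 or 0.555% lower, 13 or 0.219% over 2-fold) and YO2089 in 11 (0.185%; 5 or 0.0841% higher, 6 or 0.101% lower), and since both use the same F45 libraries the sizes of these sets were not compared. The count for YO2088 was 345 without F45 library E02, 39 to 45 without either other F45 library, 17 without D01 and 23 without D02, and that for YO2089 was 73 without E02 and 3 without D04. With a *flo11*Δ library left out the counts were 34 to 52 and 5. The 5 increases in YO2089 were *CSS1*, *HPF1*, *DSE1*, *DSE2* and *SCW11*. Outside the ORFs, 7 noncoding features differed between the strains. The XUT 12F-188 (chromosome XII, 460075 to 460602), named after its values were seen, had 207 and 222 CPM in YO2088, 33.5 and 18.2 CPM in YO2089, and 114 to 194 CPM in F45. Its log2 difference between the strains was 3.06 (SE 0.276, edgeR adjusted p = 0.000947). The *flo11*Δ strains were split too, with 407 and 384 CPM in YO2085 (C01 and C02) and 103 and 108 CPM in YO2086 (C03 and C04). In both deletions the libraries numbered 01 and 02 were thus the higher ones. Some of the 24 ORFs above had this order in *flo11*Δ too, such as *DED1* (460 and 423 CPM, then 366 and 332 CPM). Others did not, such as *MEP2* (3824 and 3510 CPM, then 3894 and 3853 CPM). The library number coincides with the strain in each deletion, so a difference by strain and one by number cannot be told apart. 12F-188 lies between *TAR1* and *YLR154C-G*, ribosomal DNA ORFs at which F45 library E03 stood apart. A part of that locus in its difference was not tested.

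Finally, *cis3*Δ was set directly against *flo11*Δ, the other deletion that gives smooth colonies. They differed in 1808 ORFs (30.4% of those tested), of which 894 (15%) were higher and 914 (15.4%) lower in *cis3*Δ, and 109 (1.83%) by more than 2-fold. Several genes that differed between *cis3*Δ and F45 were farther from F45 in *flo11*Δ. *CSS1* was at 1197 to 1351 CPM and *HPF1* at 1052 to 1163 CPM in *flo11*Δ, 6.18-fold and 6.51-fold above *cis3*Δ (adjusted p = 9.49e-06 and 6.99e-06). *NFG1* was at 10.3 to 12.3 CPM in *flo11*Δ, 4.93-fold below *cis3*Δ (adjusted p = 1.24e-05), and *FLO10* at 44.6 to 52.0 CPM, 2.7-fold below (8.42e-05). Among the daughter genes *DSE4*, *CTS1*, *PRY3*, *DSE2* and *EGT2* were lower in *cis3*Δ than in *flo11*Δ by 1.28-fold to 2.01-fold (adjusted p at most 0.00234), whereas *AMN1* was higher (log2 difference 0.66, adjusted p = 9.854e-05). *DSE1* and *SCW11* did not differ past the threshold between the deletions (log2 differences −0.06 and 0.05, SE 0.0681 and 0.0611, edgeR adjusted p = 0.524 and 0.544). The mitochondrial genes *TIM10* and *MRPS5* and the glycosylation gene *OCH1* did differ. In *flo11*Δ *TIM10* was at 243 to 277 CPM, *MRPS5* at 80.3 to 91.5 CPM and *OCH1* at 113 to 118 CPM, closer to F45 than *cis3*Δ was (adjusted p = 0.000238, 0.00309 and 0.00231).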

How the data were processed

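Counts were analysed as deposited. The authors aligned the stranded, paired reads to the S288c genome (R64-1-1), extended with nonreference genes, using Bowtie2 2.1.0, and made raw counts of read pairs per feature with featureCounts 1.4.0, keeping pairs of any mapping quality. The deposited table of the second batch was used, with the 11 libraries of F45, *cis3*Δ and *flo11*Δ. The first batch was not used here. The authors' own fold changes and p-values entered no test or estimate, but their *cis3*Δ gene list, made with them, guided which genes were named. Libraries were assigned to strains from the column names, which carry no replicate number of the sample labels.

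Features were filtered with filterByExpr, which kept 8059, of which 5942 were nuclear ORFs. Library sizes and TMM factors were taken from nuclear ORFs. The edgeR 4.0.16 quasi-likelihood test (R 4.3.3, limma 3.58.1) was fitted with 1 coefficient per group over the 11 libraries, or 1 per strain, with a prior count of 0.125. P-values were adjusted by Benjamini–Hochberg over all features, called at 0.01. SE was the absolute log2 fold change divided by the square root of F. The likelihood ratio test, DESeq2 1.42.0, other normalizations and filters, a test against 1.5-fold and leaving out each library were tried as alternatives. The fit was tested on simulated data. Total depth of 11565108 to 25104790 limits the precision of low counts, and intervals cover counting error only.

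Genes named were *CIS3*, its neighbors, the PIR and FLO genes, the study's *cis3*Δ genes, the 15 largest called changes in either direction, the strain differences and the leading members of each list. The members and lists were chosen with earlier results of these data known. Positions are those of the deposited count table, and gene symbols are from the RefSeq R64 annotation. Of 5900 nuclear ORFs with a RefSeq locus, 5868 had the same start and end in both. One member of a gene list, and a sequence comparison that depends on it, are not reported here.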

Additional observations from a re-analysis of the deposited data

Results flagged for a closer look

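The strains YO2088 and YO2089, which carry the same listed genotype, differed in 24 ORFs by the direct edgeR test between them (adjusted p between 0.000947 and 0.00844), and each is listed here with its log2 difference, YO2088 over YO2089. The 5 largest differences were 1.096 for *MUP3*, a methionine permease, 1.083 for *YOR343C*, 0.956 for *YDR215C*, 0.930 for *MEP2*, an ammonium permease, and 0.921 for *DED1*, an RNA helicase of translation initiation. Next came 0.883 for *SYG1*, 0.880 for *YNR014W*, 0.877 for *CHO2*, a phospholipid methyltransferase, 0.862 for *SSU1*, a sulfite pump, and 0.814 for *UGA4*, a GABA permease. Next came 0.797 for *GDH3*, a glutamate dehydrogenase, 0.777 for *OPT2*, an oligopeptide transporter, 0.775 for *SEO1*, 0.768 for *NAR1*, a component of cytosolic iron-sulfur protein assembly, and 0.762 for *YJL077W-B*. Next came 0.750 for *SPI1*, a GPI-anchored wall protein, 0.743 for *AGP2*, 0.728 for *OPI3*, a phospholipid methyltransferase, 0.700 for *YGR161W-C*, and 0.689 for *NPC2*, a sterol-binding vacuolar protein. The smallest were 0.675 for *COX19*, 0.603 for *MEP3*, an ammonium permease, and 0.557 for *MET30*, an F-box protein of sulfur regulation. *NFG1*, a negative regulator of filamentous growth, was lower in YO2088, at −0.932. In every one of the 24 the libraries of the strains did not overlap, but each strain had 2 libraries, and none of the ORFs passed when D01 or D02 was left out. The number in the column name coincides with the strain, so differences by strain and by number cannot be told apart. Dixon's test flagged no library within the 4 of *cis3*Δ in the named genes. With so few libraries it can miss one that differs, so its result does not show that none stood apart. In D04 *PIR3* had 247 CPM, against 583 to 654 CPM in the other *cis3*Δ libraries. *SPS100* had 73.7 CPM in D04, against 180 to 284 CPM. In other genes D04 lay near the rest, such as *TIM10* at 402 CPM against 365 to 385 CPM.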

How the results depend on the processing

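For *cis3*Δ against F45, where 25 ORFs passed, 133 passed by the edgeR likelihood ratio test, 260 by DESeq2, 4 with only the groups compared in the fit, 46 with strains as groups and 1 by the test against 1.5-fold; the cause was not tested. Those over 2-fold, 5 in all, were 15, 8, 1, 6 and 1 in the same order. Leaving out 1 F45 or *cis3*Δ library gave 9 to 157 and 3 to 9 ORFs, and leaving out *flo11*Δ library C02 or C03 gave 14 or 11. For YO2088 against YO2089 (24 ORFs) the counts were 61 by the likelihood ratio test, 117 by DESeq2 and 0 with only the groups compared, and 0 to 33 with a library left out. For YO2088 against F45 (93 ORFs) they were 218, 339 and 15, and 17 to 345. For YO2089 against F45 (11 ORFs) they were 53, 61 and 1, and 3 to 73. Without a *flo11*Δ library these 3 counts were 7, 13 or 14, then 34 or 52, and 5. The direct comparison with *flo11*Δ gave 1344 to 1955 ORFs with a library left out and 2052 by DESeq2, and *CIS3* was between −11.52 and −11.28 with a library left out.

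Small estimates changed sign. *FMP33* (main value −0.068) ranged from −0.185 to 0.047 with a library left out, *FAR1* (0.086) from −0.080 to 0.248 and *FLO1* (0.029) from −0.068 to 0.094. *TAR1*, *YLR154C-G* and *YLR154W-A* ranged from −7.141, −3.260 and −6.891 to 0.495, 0.416 and 1.259, the positive values being those without F45 library E03, in which these ORFs were high. Whether the number in the column name pairs the libraries stayed undecided, since correlations within groups of 3 or 4 libraries cannot settle it. Those of same-numbered libraries ran from −0.199 to 0.304. All between *flo11*Δ and *cis3*Δ were positive (0.0739 to 0.259), and all between *flo11*Δ and F45 were negative (−0.058 to −0.0453). With this number as a replicate block 17 ORFs passed for *cis3*Δ against F45, 5 of them over 2-fold, and 1912 differed between *cis3*Δ and *flo11*Δ. *SSY5* moved from −0.032 to 0.006, and *CIS3* was at −11.355. The numbers coincide with the strains, so no blocked fit was made between these.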
